A study of Mus musculus with 12 samples.

Results

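The genes described here carry out mitosis: 48 listed genes for entry into and exit from cell division, the spindle, the spindle checkpoint, the kinetochore, chromosome structure and the final cut between daughter cells. They were listed by function, with earlier results of these data known. Of the 48, 47 were measured among 18193 genes of the array; Ccnb1 was not analysed here, because no probe set was listed under its symbol alone. Each gene was read from 1 probe set, a group of short probes on the array, and where a gene had several the one with the highest mean over all 12 arrays was used.

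Liver RNA came from 3 groups of mice aged 3 months, all labelled C57Bl/6. The groups were wild type without any agent, Atp7b-/- without any agent, and Atp7b-/- given supplemental zinc, with 4 arrays in each. Atp7b is the copper pump of the hepatocyte, and its loss leads to copper build-up in the liver and, in people, to Wilson disease. Zinc is used against that build-up because it limits copper uptake from the gut. The labels give a plain knockout with no cell type or promoter that limits it, so the design singles out no liver cell type. How much zinc was given and for how long, and the animals' sex, are not given here. The labels do not say that the wild type and untreated Atp7b-/- arrays came from separate animals, so p-values measure only how far arrays spread, which may be partly technical.

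When a cell enters mitosis, cyclin-bound Cdk1 and the Aurora and Polo kinases condense the chromosomes and build the spindle. Kinetochores then attach each chromosome to spindle microtubules, and the checkpoint holds back Cdc20 until every attachment is made. The anaphase-promoting complex with Cdc20 next releases the cohesin that ties sister chromatids, and a contractile ring at the midzone closes the cleavage furrow. Adult liver cells seldom divide, and hepatocytes that replicate DNA without finishing cytokinesis become polyploid. Most genes of this machinery are transcribed late in the cell cycle, from promoters that share a short motif called the cell cycle genes homology region (CHR).

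All values below are log2 levels as deposited. Array medians lay between 5.63 and 5.71, and the number of arrays limits the precision. The hepatocyte markers averaged between 14.06 and 14.23 on every array, as the liver label implies. Atp7b itself read 8.51 to 8.69 in wild type, 6.91 to 7.25 in Atp7b-/- and 6.57 to 6.98 with zinc (whether its probes fall inside the disrupted stretch is not stated). Atp7b-/- replicate 1 had the lowest median correlation with the other arrays of its group, 0.991. The summed pancreatic acinar markers averaged 9.70 and 7.15 in zinc-treated replicates 2 and 3, against 5.65 to 5.96 on the other arrays. The difference between the 3' and 5' control probe sets of actin and Gapdh, a measure of RNA integrity, was 0.79 to 0.88 in Atp7b-/-, 0.62 to 0.78 in wild type and 0.54 to 0.74 with zinc. It was higher in every untreated mutant array than in every other array, so RNA integrity and group cannot be told apart in either comparison that uses the untreated mutants.

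The first comparison asks what the loss of Atp7b changed. Of the 47 mitotic genes, 40 were higher in Atp7b-/- than in wild type at an adjusted p under 0.05 by limma, 1 was lower and 6 did not pass the test. Over all 18193 genes, 14.3% were called higher and 10.3% lower. Each of the 40 rose by at least 1 log2 unit, which 3.03% of all genes did (0.572% fell by as much), and 28 rose by at least 4-fold (2 log2 units). The median difference of the 47 was 2.37, beside -0.05 over all genes, and it ran from -0.39 for Kif23 to 5.97 for Esco2. In 40 members the lowest Atp7b-/- array stood above the highest wild type array, and in 1 the highest stood below the lowest; over all genes these shares were 14.3% and 12.1%. In these bulk samples, more cells in division and more RNA per dividing cell cannot be told apart.

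The second comparison asks what zinc changed in the mutant. Against untreated Atp7b-/-, 40 of the 47 genes were lower with zinc, 26 of them by at least 1 log2 unit, and 0 were higher. Over all genes 4.84% were called lower, 0.918% by at least 1 log2 unit, and 1.7% higher. At an unadjusted p under 0.05 the limma fit gave 43 lower members and likewise 0 higher. The median difference was -1.11, beside 0.01 over all genes. In 40 members every zinc-treated array lay below every untreated mutant array (9.39% of all genes), and in 1, Kif23, every one lay above (5.93%).

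Zinc-treated mutants did not match wild type. Of the 47 genes, 28 were still higher with zinc than in wild type, 24 of them by at least 1 log2 unit, and 0 were lower. All genes gave 4.89% higher, 1.07% by at least 1 log2 unit, and 2.73% lower, 0.187% by at least 1 log2 unit. By the unadjusted p the counts were 35 and 0. The median difference was 1.01, beside -0.02 over all genes. The 3 comparisons share arrays: the untreated mutants serve in the first and second, the zinc-treated ones in the second and last, and the wild type arrays in the first and last.

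Array by array, the median of the 47 genes minus their wild type means was 2.65, 2.05, 2.26 and 2.46 in Atp7b-/- and 0.99, 1.29, 1.20 and 0.91 with zinc. The wild type arrays gave 0.04, 0.07, 0.07 and -0.17. The 3 groups did not overlap in this median. Atp7b-/- replicate 1 held the highest value of its group in 34 of the 47 genes. Without it, 40 were higher in Atp7b-/- and 0 lower, with a median difference of 2.22, and 38 were lower with zinc, with a median of -0.95. Without zinc-treated replicates 2 and 3, 35 were lower with zinc and 25 stayed above wild type.

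**Figure D1:**
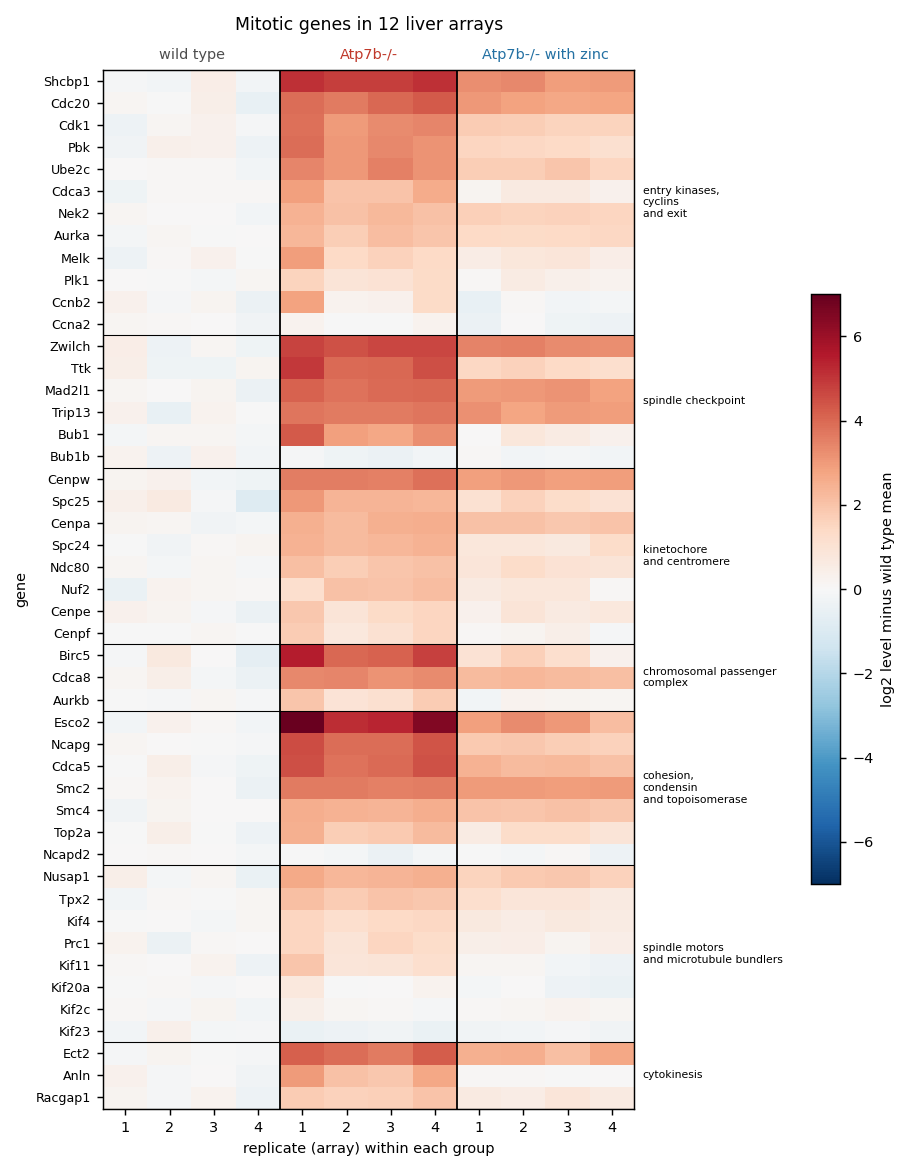
Log2 level minus the wild type mean for 47 mitotic genes (rows, grouped by role) on 12 arrays (columns, 4 per group), in colour from blue (lower) to red (higher). The 4 untreated Atp7b-/- columns are the darkest for nearly every gene, the zinc-treated columns are paler, and Ccna2, Bub1b, Ncapd2, Kif2c and Kif23 stay near white.

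The members' promoters were searched for the letters of the CHR, TTTGAA or TTCGAA, and of the CCAAT box, CCAAT, on both strands. The search itself used no array values. The members were listed by function but with earlier results of these data known, so the shares below only describe the list. Of the 48 listed genes 38 matched the RefSeq promoter table (build GRCm38.p6), with 40 windows that run from 250 bases before to 50 after a gene's start. Without a window were Aurkb, Ccna2, Esco2, Kif20a, Pbk, Shcbp1, Smc4, Spc24, Tpx2 and Zwilch, so the shares leave out some of the most raised genes. Ect2 and Prc1 each have overlapping windows that were counted separately. A CHR match lay in 32 of the 40 windows, or 80%, against 19.2% of all 32851 windows in the table. Within 75 bases before to 50 after the start it lay in 75% of the members' windows and 6.75% of all windows. A CCAAT match lay in 75% against 37.4%, and both motifs together in 67.5% against 7.52%. For E2F the letters TTCCCGC were searched on both strands, with TTGGCGC as another form and then TTCGCGC as the last; TTGGCGC can overlap a reversed CCAAT box. Any of the 3 lay in 17.5% of the members' windows, 8.07% of all windows and 67.5% of the 40 windows of 34 DNA replication genes. Those replication windows held a CHR match in 22.5% and a CCAAT match in 55%. A match is a run of letters and not a measured binding site.

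The 150 bases before the start are printed for 5 genes that rose in Atp7b-/- and that represent entry, exit, cohesion, condensin and the kinetochore. They were picked because a CHR match lies in this stretch, as it does in 14 of the 40 member windows. In 8 windows no CHR match was found at all; 7 of them belong to genes that rose, namely Birc5, Cenpe, Mad2l1, Melk, Nek2, Nuf2 and Nusap1. Capitals mark CHR matches (reversed, TTTGAA reads TTCAAA) and CCAAT matches (reversed, these read ATTGG). The windows are Cdk1, chr10:69352913-69353062 on the minus strand; Cdc20, chr4:118437344-118437493 on the minus strand; Cdca5, chr19:6084947-6085096 on the plus strand; Ncapg, chr5:45669775-45669924 on the plus strand; and Cenpw, chr10:30200541-30200690 on the minus strand. All are given 5′ to 3′ on the strand of the gene.
Cdk1: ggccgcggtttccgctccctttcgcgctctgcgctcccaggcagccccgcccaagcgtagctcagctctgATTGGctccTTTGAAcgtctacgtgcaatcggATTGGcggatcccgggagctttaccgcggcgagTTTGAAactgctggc
Cdc20: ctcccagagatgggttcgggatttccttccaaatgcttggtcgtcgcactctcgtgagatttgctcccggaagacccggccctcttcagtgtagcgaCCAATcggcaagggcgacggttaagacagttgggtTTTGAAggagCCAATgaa
Cdca5: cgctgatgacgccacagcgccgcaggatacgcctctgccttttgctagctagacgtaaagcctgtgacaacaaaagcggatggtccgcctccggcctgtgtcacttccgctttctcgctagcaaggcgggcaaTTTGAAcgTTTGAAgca
Ncapg: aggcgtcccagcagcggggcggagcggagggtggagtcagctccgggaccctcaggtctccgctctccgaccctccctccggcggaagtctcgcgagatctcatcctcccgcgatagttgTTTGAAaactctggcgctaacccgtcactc
Cenpw: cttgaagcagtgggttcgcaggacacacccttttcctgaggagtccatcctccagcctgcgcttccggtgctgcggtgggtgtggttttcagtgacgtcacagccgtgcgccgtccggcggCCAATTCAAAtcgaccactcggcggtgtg
The CHR match nearest to the start began 15 bases before it in Cdk1, 18 in Cdc20, 9 in Cdca5, 30 in Ncapg and 25 in Cenpw. In Cenpw the CCAAT and CHR matches share 1 letter, and Ncapg has its CCAAT match farther upstream, 176 bases before the start. Among members that did not rise on the probe sets used, Ccnb2, Bub1b, Kif2c, Ncapd2 and Kif23 also hold a CHR match in their windows.

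Entry and exit genes came first by role. Of 12 measured genes for entry kinases, cyclins and mitotic exit, 10 rose in Atp7b-/- with a median difference of 2.28, 10 were lower with zinc, and 7 stayed above wild type. Shcbp1, a Shc-binding protein of the midbody, had the largest rise of them (gene 20419). It read 4.56, 4.42, 5.10 and 4.41 in wild type, 9.73, 9.47, 9.45 and 9.76 in Atp7b-/-, and 7.88, 8.01, 7.53 and 7.60 with zinc. The 3 groups formed separate bands with zinc in between. The rise was 31.5-fold (log2 4.98 ± 0.15 SE, adjusted p = 3.33e-10 by limma), and zinc-treated mutants lay 3.6-fold below untreated ones and 8.75-fold above wild type. Its wild type mean was below the lower quartile of all genes, 4.88, where an array reads little above background, so this fold may understate the change.

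Cdc20, the activator of the anaphase-promoting complex and target of the checkpoint, was read at 6.27, 6.09, 6.56 and 5.63 in wild type (gene 107995). The untreated mutants gave 10.04, 9.75, 10.16 and 10.41, and zinc-treated ones 9.18, 8.95, 8.82 and 8.91. Every zinc-treated array lay below every untreated mutant array, and both mutant groups stood far above wild type. Cdc20 rose 15.5-fold (adjusted p = 4.29e-09 by limma). It was 2.18-fold lower with zinc than without (adjusted p = 0.00226) and still 7.1-fold above wild type (adjusted p = 3.21e-07). Ube2c, the ubiquitin-conjugating enzyme of the same complex, rose by 3.29 and was 1.71 above wild type with zinc.

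Cdk1, the kinase that drives entry into mitosis, read 5.92, 6.41, 6.56 and 6.17 in wild type, 10.13, 9.27, 9.59 and 9.66 in Atp7b-/-, and 8.05, 8.01, 7.85 and 7.82 with zinc. Its promoter, printed above, has 2 CHR and 2 CCAAT matches in 150 bases. All arrays of a group stayed together, and the zinc arrays lay about midway. Cdk1 rose 10.5-fold (log2 3.40 ± 0.17 SE, adjusted p = 1.05e-08), was 3.32-fold lower with zinc (adjusted p = 7.11e-05) and 3.17-fold above wild type with zinc (adjusted p = 2.98e-05). Pbk, a kinase active in mitotic cells, read 5.07, 5.67, 5.66 and 4.96 in wild type, 9.25, 8.37, 8.68 and 8.49 in Atp7b-/-, and 6.83, 6.78, 6.75 and 6.46 with zinc. It rose 10.3-fold and again showed no overlap between any pair of groups.

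The other kinases rose by less: Nek2, which splits the centrosomes, by 2.20, Aurka by 2.04, Melk by 1.84 and Plk1 by 1.20. Melk in Atp7b-/- replicate 1 stood well above the rest of its group. Cdca3, which promotes entry, rose by 2.37, was 1.93 lower with zinc, and then stood 0.44 above wild type (adjusted p = 0.188). That rise rests on 1 of 3 probe sets: the other 2 gave -0.18 and -0.21. Without probe sets whose names end in _x_at, _s_at or _a_at, marks for probes that can match several transcripts, Cdca3 differed by -0.18 (adjusted p = 0.095). The cyclins did not pass in any comparison. Ccnb2, the partner of Cdk1, read 7.55, 4.98, 5.04 and 6.08 in Atp7b-/- against 5.07, 4.66, 4.97 and 4.34 in wild type, so only replicates 1 and 4 were clearly raised (difference 1.15 ± 0.43 SE, adjusted p = 0.0656). Without Atp7b-/- replicate 2 or 3, Ccnb2 passed the test. Ccna2 differed by 0.11 ± 0.12 SE (adjusted p = 0.539).

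The spindle checkpoint holds anaphase until kinetochores are attached. Of its 6 genes, 5 rose, with a median of 3.83 over the 6, the same number were lower with zinc, and 4 stayed above wild type. Zwilch, a subunit of the complex that brings dynein and Mad proteins to kinetochores, read 4.93, 4.13, 4.63 and 4.19 in wild type (gene 68014). It read 9.18, 8.90, 9.12 and 9.16 in Atp7b-/- and 7.94, 7.97, 7.80 and 7.73 with zinc. Both mutant groups were narrow and well apart from wild type. The rise was 24.6-fold (adjusted p = 3.44e-10 by limma). Zwilch was 2.34-fold lower with zinc than without (adjusted p = 0.000395). With zinc it was still 10.5-fold above wild type (adjusted p = 1.72e-08), the largest such difference among the 47.

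Mad2l1, the Mad2 protein that binds Cdc20, read 6.77, 6.67, 6.83 and 6.24 in wild type, 10.75, 10.41, 10.59 and 10.63 in Atp7b-/-, and 9.59, 9.67, 9.77 and 9.45 with zinc. Trip13, the ATPase that remodels Mad2, read 5.45, 4.65, 5.42 and 5.16 in wild type, 8.89, 8.83, 8.81 and 8.92 in Atp7b-/-, and 8.36, 7.95, 8.15 and 8.10 with zinc. For both genes the zinc arrays lay nearer to the untreated mutants than to wild type. Mad2l1 rose 15.6-fold and Trip13 13-fold, and with zinc they stood 7.95-fold and 7.86-fold above wild type. The fall of Trip13 with zinc, by 0.72 (adjusted p = 0.0117), was 0.63 without zinc-treated replicates 2 and 3 and did not pass there (adjusted p = 0.109).

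For the checkpoint kinases the zinc arrays lay lower. Ttk, the Mps1 kinase that starts checkpoint signalling, read 5.11, 4.38, 4.41 and 4.90 in wild type, 9.66, 8.64, 8.72 and 9.22 in Atp7b-/-, and 6.15, 6.29, 6.10 and 5.85 with zinc. It rose 20.5-fold (adjusted p = 1.15e-08) and was 7.78-fold lower with zinc (adjusted p = 1.45e-05). The zinc arrays of Ttk lay nearer to wild type than to the untreated mutants, although still above every wild type array. Bub1, the kinase that marks the inner centromere, rose by 3.28, was 2.85 lower with zinc, and then stood 0.43 ± 0.28 SE above wild type (adjusted p = 0.4). Bub1b (BubR1) did not pass, at -0.25 ± 0.14 SE (adjusted p = 0.212), on the probe set used.

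All 8 kinetochore and centromere genes rose, by 1.27 to 3.64 with a median of 2.16, and all 8 were lower with zinc; 5 stayed above wild type. Cenpw, a histone-fold protein of the inner kinetochore, read 5.48, 5.62, 5.11 and 4.99 in wild type, 8.87, 8.89, 8.80 and 9.18 in Atp7b-/-, and 8.18, 8.31, 8.16 and 8.23 with zinc (gene 66311). It was high in all 8 mutant arrays, and the zinc arrays formed a narrow band just under the untreated ones. Cenpw rose 12.4-fold (adjusted p = 6.07e-10) and remained 7.56-fold above wild type with zinc (adjusted p = 1.72e-08). Cenpa, the histone H3 variant that defines the centromere, read 6.54, 6.50, 6.10 and 6.23 in wild type, 8.82, 8.55, 8.83 and 8.86 in Atp7b-/-, and 8.41, 8.41, 8.25 and 8.35 with zinc. It rose 5.36-fold, and its fall with zinc was small, at 0.41 on the log2 scale (adjusted p = 0.0358). That call did not pass after quantile normalization, or without any one of 7 of the 8 mutant arrays (Atp7b-/- replicate 2 was the exception), with differences of -0.43 to -0.34. Without the probe set endings named for Cdca3, Cenpa rose by 1.03 and differed from wild type by -0.23 with zinc (adjusted p = 0.559).

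The Ndc80 complex, the rod that grips microtubules, consists of Ndc80, Nuf2, Spc24 and Spc25, and all of them rose. Spc25 read 7.45, 7.73, 7.04 and 6.22 in wild type, 10.12, 9.51, 9.48 and 9.45 in Atp7b-/-, and 8.20, 8.73, 8.37 and 8.11 with zinc. Spc24 read 7.74, 7.56, 7.85 and 7.98 in wild type, 10.22, 10.01, 10.09 and 10.24 in Atp7b-/-, and 8.55, 8.58, 8.44 and 9.07 with zinc. In both, no zinc array reached an untreated mutant array or fell into the wild type range. Spc25 rose 5.77-fold (adjusted p = 1.62e-05) and Spc24 5.12-fold (adjusted p = 2.92e-08). Ndc80 rose by 1.97 and Nuf2 by 1.86. With zinc the differences from wild type were 1.24 for Spc25, 1.01 for Ndc80, 0.88 for Spc24 and 0.59 for Nuf2, of which Nuf2 did not pass (adjusted p = 0.145). The other probe set of Spc25, the one left without those endings, gave 0.25 in Atp7b-/- (adjusted p = 0.135), -0.18 for zinc against no zinc (adjusted p = 0.416) and 0.07 for zinc against wild type (adjusted p = 0.79). Without zinc-treated replicates 2 and 3 Spc25 stood 1.05 above wild type with zinc, which did not pass (adjusted p = 0.126).

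A pair of outer kinetochore proteins had the smallest differences of this class. Cenpe, a kinesin that moves chromosomes to the spindle equator, rose by 1.42, and Cenpf, a large coiled-coil protein, by 1.27. With zinc Cenpf stood 0.14 ± 0.18 SE from wild type (adjusted p = 0.715). Cenpe was 0.76 lower with zinc than without (adjusted p = 0.0438), and this call did not pass in 11 of the alternative fits, among them those without any one of Atp7b-/- replicates 1, 3 or 4, zinc replicates 1, 3 or 4, or wild type replicates 2 or 3.

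The chromosomal passenger complex corrects faulty attachments and later sits at the midzone. Its 3 listed genes all rose and all were lower with zinc, and 1 of them, Cdca8, stayed above wild type. Birc5 (survivin) read 4.76, 5.55, 4.88 and 4.24 in wild type, 10.34, 8.88, 8.98 and 9.64 in Atp7b-/-, and 5.85, 6.52, 6.06 and 5.15 with zinc (gene 11799). The untreated mutants were far above both other groups, replicates 1 and 4 most so, and the zinc and wild type ranges overlapped. Birc5 rose 24.3-fold (log2 4.60 ± 0.35 SE, adjusted p = 7.24e-07) and was 11.9-fold lower with zinc (adjusted p = 7.94e-05), the largest fall among the 47. Its remaining difference from wild type was 1.04 ± 0.35 SE (adjusted p = 0.0978).

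Cdca8 (borealin), which binds survivin, read 5.50, 5.75, 5.18 and 4.92 in wild type, 8.69, 8.78, 8.47 and 8.65 in Atp7b-/-, and 7.53, 7.65, 7.53 and 7.43 with zinc. It rose 9.91-fold (adjusted p = 3.2e-09) and with zinc remained 4.59-fold above wild type (adjusted p = 4.99e-07). Aurkb, the kinase of the complex, read 4.44, 4.39, 4.61 and 4.40 in wild type, 6.38, 5.40, 5.57 and 6.21 in Atp7b-/-, and 4.28, 4.71, 4.65 and 4.60 with zinc. So the zinc arrays of Aurkb lay around the wild type arrays, while those of Cdca8 lay above them. Aurkb rose 2.69-fold (adjusted p = 9.25e-05) and differed from wild type by 0.10 ± 0.18 SE with zinc (adjusted p = 0.811). Incenp, the scaffold of the complex and one of the other mitotic genes, rose by 1.83 and was named here after its value was seen.

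Genes for cohesion, condensin and decatenation followed, with 6 of 7 higher in Atp7b-/- at a median of 3.58. The same number were lower with zinc and also stayed above wild type. Esco2, the acetyltransferase that locks cohesin onto sister chromatids, had the largest rise of all 47 genes and of all 18193 genes tested (gene 71988). It read 3.50, 4.00, 3.81 and 3.51 in wild type, 10.64, 8.87, 9.05 and 10.16 in Atp7b-/-, and 6.56, 7.01, 6.74 and 5.84 with zinc. The gaps between groups were wide, although untreated mutant arrays 1 and 4 stood above 2 and 3. Esco2 rose 62.8-fold (log2 5.97 ± 0.35 SE, adjusted p = 5.22e-08), was 8.81-fold lower with zinc (adjusted p = 0.000183) and was then 7.13-fold above wild type (adjusted p = 0.000199).

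Cdca5 (sororin), which protects acetylated cohesin, read 4.43, 4.87, 4.34 and 4.13 in wild type, 8.98, 8.27, 8.38 and 8.89 in Atp7b-/-, and 6.86, 6.65, 6.73 and 6.47 with zinc. Like Esco2 it showed 3 separate groups, and it rose 18.2-fold (adjusted p = 2.71e-09). Condensin compacts chromosomes with the ATPases Smc2 and Smc4. Smc2 read 5.97, 6.13, 5.92 and 5.45 in wild type, 9.51, 9.49, 9.37 and 9.43 in Atp7b-/-, and 8.83, 8.83, 8.82 and 8.83 with zinc. The mutant arrays varied very little within either group. Smc2 rose 12-fold (adjusted p = 3.44e-10) and with zinc remained 7.79-fold above wild type (adjusted p = 6.18e-09). Its fall with zinc was also 0.62 without zinc-treated replicates 2 and 3, where it did not pass (adjusted p = 0.0538), and 0.33 with the mean of all probe sets (adjusted p = 0.0671). Smc4 rose by 2.49 and was 1.97 above wild type with zinc.

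Ncapg, a condensin I subunit whose promoter is printed above, read 3.61, 3.49, 3.45 and 3.38 in wild type, 8.06, 7.38, 7.37 and 7.91 in Atp7b-/-, and 5.32, 5.37, 5.23 and 5.10 with zinc. It rose 18.3-fold (adjusted p = 3.61e-10) and was 5.36-fold lower with zinc (adjusted p = 1.8e-06). So within condensin the zinc arrays of Ncapg lay nearer to wild type and those of Smc2 and Smc4 nearer to the untreated mutants. Ncapd2, another condensin I subunit, did not pass (-0.18 ± 0.10 SE, adjusted p = 0.221). Top2a, which untangles sister DNA, rose by 2.05 and stood 1.01 above wild type with zinc on the probe set used, while its other 2 probe sets gave -0.38 and 0.33 in Atp7b-/-. Without the endings named above its differences were 0.33 in Atp7b-/- (adjusted p = 0.0856) and 0.15 with zinc (adjusted p = 0.569), both from wild type. With zinc it also did not pass with the mean of all probe sets (0.30, adjusted p = 0.116) or without zinc-treated replicates 2 and 3 (0.73, adjusted p = 0.121).

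**Figure D2:**
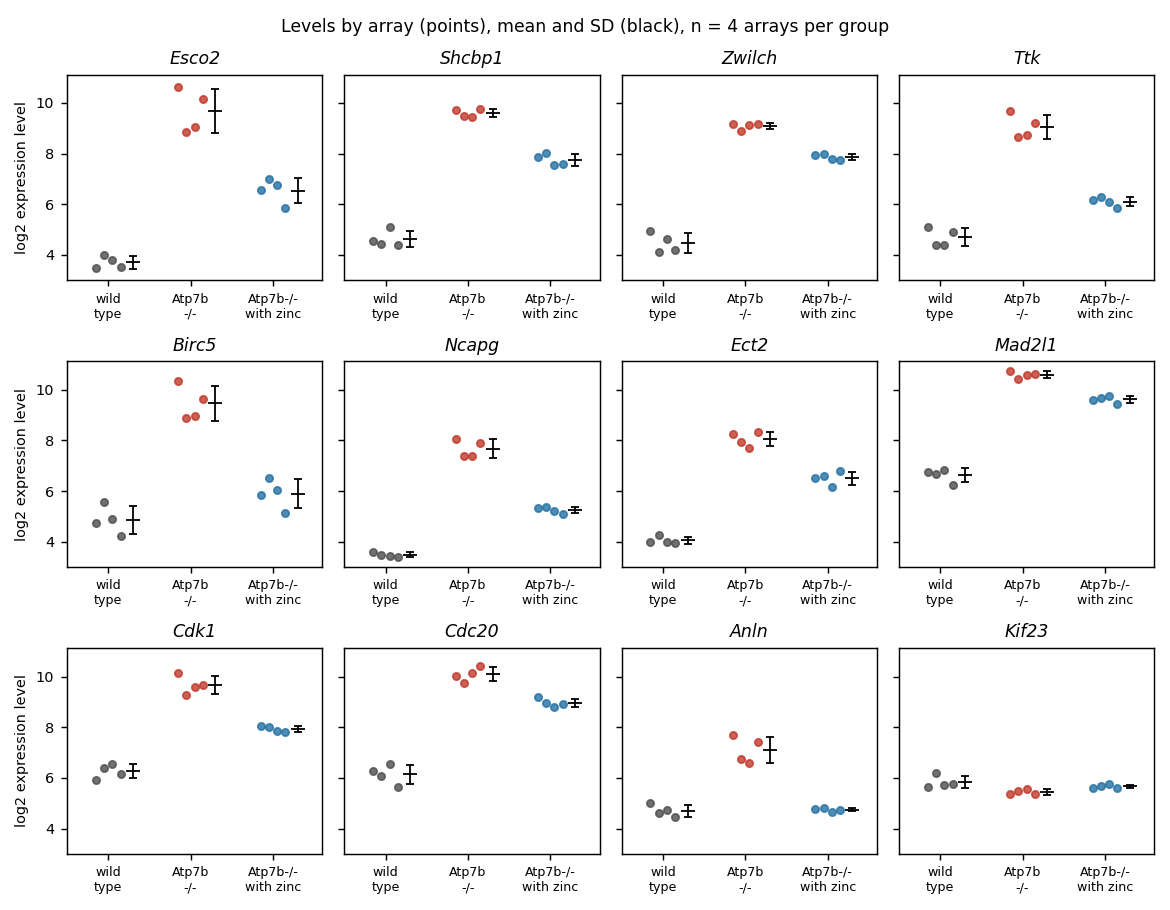
Log2 expression level of 12 mitotic genes on each array (points) with the mean and SD of 4 arrays per group (black). Untreated Atp7b-/- arrays stand above wild type in all panels but Kif23, while zinc-treated arrays lie in between for Esco2 and Cdk1, near the untreated mutants for Mad2l1, and at the wild type level for Anln.

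Motors and bundlers of the spindle had the smallest median difference of the 7 roles. Of 8 genes, 5 rose, 1 fell and 2 did not pass, with a median of 1.25; 5 were lower with zinc and 3 stayed above wild type. Nusap1, which bundles spindle microtubules near chromatin, read 5.27, 4.71, 4.98 and 4.38 in wild type, 7.48, 7.17, 7.20 and 7.32 in Atp7b-/-, and 6.37, 6.66, 6.71 and 6.44 with zinc. Tpx2, the activator of Aurora A, read 4.25, 4.53, 4.38 and 4.55 in wild type, 6.55, 6.21, 6.45 and 6.29 in Atp7b-/-, and 5.62, 5.28, 5.25 and 5.04 with zinc. Neither gene showed overlap between groups. Nusap1 rose 5.49-fold and Tpx2 3.86-fold (adjusted p = 1.32e-07 and 9.95e-08). The 2 brightest probe sets of Tpx2 had nearly the same mean, 5.37 and 5.35, and after quantile normalization its difference was -0.18 (adjusted p = 0.389).

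Kif4, a chromokinesin, read 5.60, 5.65, 5.51 and 5.76 in wild type, 7.15, 6.83, 7.03 and 7.08 in Atp7b-/-, and 6.33, 6.16, 6.33 and 6.19 with zinc. Prc1, which crosslinks the midzone, read 6.19, 5.54, 6.04 and 5.97 in wild type, 7.45, 6.86, 7.42 and 7.20 in Atp7b-/-, and 6.33, 6.38, 6.15 and 6.40 with zinc. The zinc arrays of Kif4 stayed above wild type, while 1 of those of Prc1 lay within its range. Kif4 rose 2.63-fold and Prc1 2.45-fold. Kif11 (Eg5), the motor that pushes spindle poles apart, rose by 1.21 and with zinc differed from wild type by -0.08 ± 0.21 SE (adjusted p = 0.867). Kif20a and Kif2c did not pass, at 0.24 ± 0.15 SE and 0.13 ± 0.11 SE.

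Kif23 was the only member lower in Atp7b-/-. This kinesin forms centralspindlin with Racgap1. It read 5.64, 6.21, 5.73 and 5.78 in wild type, 5.36, 5.49, 5.58 and 5.37 in Atp7b-/-, and 5.61, 5.67, 5.77 and 5.61 with zinc. The groups were close, and the highest mutant array lay just under the lowest wild type array. The difference was -0.39 ± 0.11 SE (adjusted p = 0.0219), and it did not pass without Atp7b-/- replicate 1 or replicate 4. The other 2 probe sets of Kif23 gave -0.22 and -0.09 with overlapping arrays.

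All 3 cytokinesis genes rose and were lower with zinc, and 2 stayed above wild type. Ect2, which is needed for the furrow to form, read 3.99, 4.27, 4.01 and 3.95 in wild type, 8.25, 7.94, 7.70 and 8.32 in Atp7b-/-, and 6.52, 6.59, 6.17 and 6.78 with zinc. It rose 16-fold (adjusted p = 8.99e-10) and was 5.52-fold above wild type with zinc (adjusted p = 2.49e-07). Racgap1, the partner of Kif23 that binds Ect2, read 5.18, 4.95, 5.25 and 4.65 in wild type, 6.81, 6.60, 6.68 and 7.03 in Atp7b-/-, and 5.64, 5.51, 5.87 and 5.66 with zinc. It rose 3.41-fold (adjusted p = 6.61e-07), unlike its partner. With zinc it was 0.66 above wild type; without zinc-treated replicates 2 and 3 this was 0.64 and did not pass (adjusted p = 0.0567).

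Anln (anillin), the scaffold of the contractile ring, read 5.01, 4.60, 4.75 and 4.45 in wild type, 7.68, 6.74, 6.61 and 7.42 in Atp7b-/-, and 4.77, 4.80, 4.66 and 4.75 with zinc. Its zinc arrays lay inside the wild type range. Anln rose 5.32-fold (adjusted p = 1.59e-06), was 5.17-fold lower with zinc (adjusted p = 2.67e-05) and then differed from wild type by 0.04 ± 0.20 SE (adjusted p = 0.939). That both Ect2 and Anln rose while only Ect2 stayed above wild type with zinc is a comparison of values, since the difference between genes was not tested.

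Across roles, the genes furthest above wild type with zinc were Zwilch (3.39), Shcbp1 (3.13), Mad2l1 (2.99), Trip13 (2.97), Smc2 (2.96), Cenpw (2.92), Esco2 (2.83) and Cdc20 (2.83). Genes that rose without zinc but did not pass with it included Anln (0.04), Aurkb (0.10), Cenpf (0.14), Plk1 (0.33), Prc1 (0.38), Bub1 (0.43) and Cdca3 (0.44). In the second set the SE lay between 0.14 and 0.28, and differences well above the SE, such as that of Plk1, did not pass either. Others that rose without zinc and did not pass with it stood further from wild type: Birc5 (1.04), Cenpe (0.66), Melk (0.65) and Nuf2 (0.59). So a gene that did not pass cannot be taken to be at the wild type level. By class, all 6 cohesion, condensin and topoisomerase genes that rose were still above wild type with zinc, although the call of Top2a was lost in the 3 alternatives given above. Of the 10 raised entry and exit genes it was 7, of the 8 kinetochore genes 5, of the 3 passenger genes 1.

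**Figure D3:**
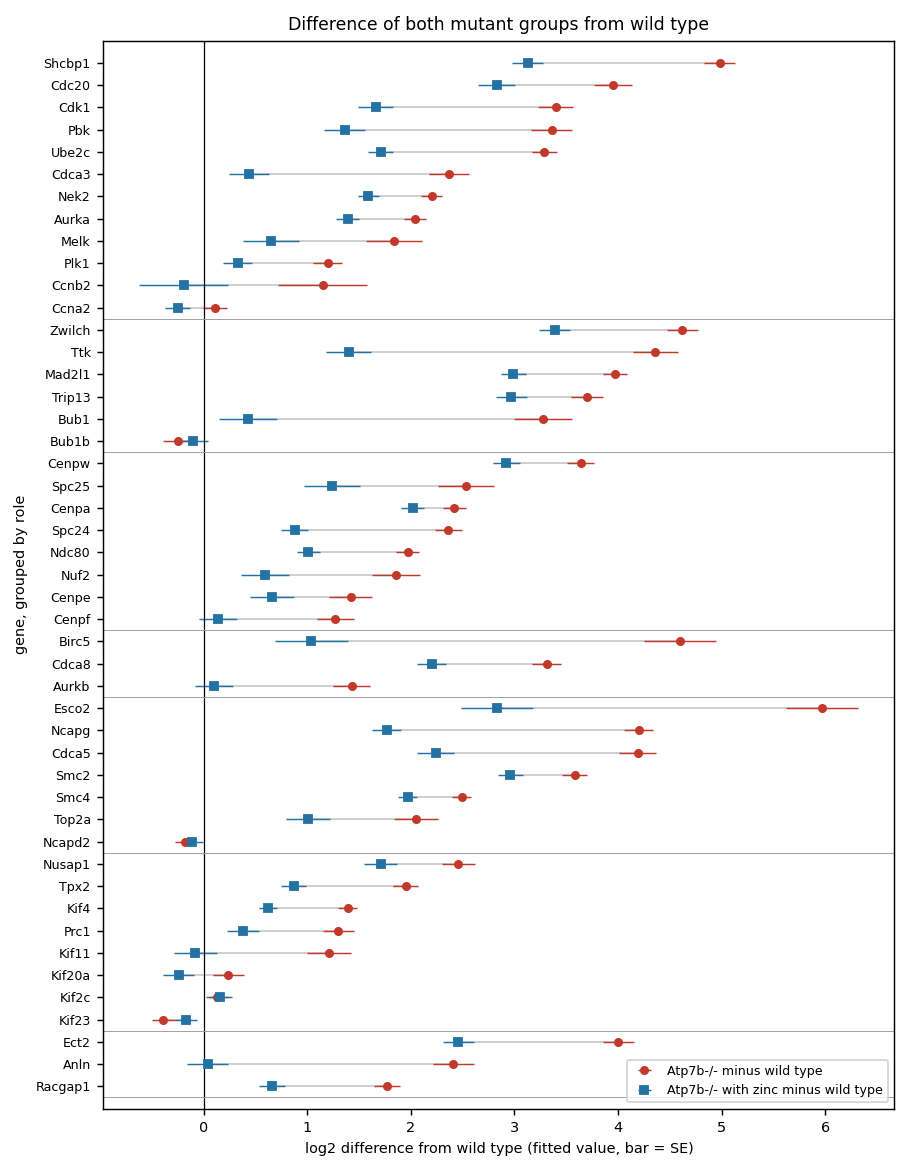
Fitted log2 difference from wild type for untreated Atp7b-/- (red circles) and zinc-treated Atp7b-/- (blue squares), with SE bars, for 47 genes grouped by role. The blue squares lie to the left of the red circles for nearly every gene, near 0 for Anln and Aurkb and near 3 for Zwilch and Mad2l1.

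Low wild type levels bear on the size of these differences. In 18 of the 47 genes the wild type mean lay below the lower quartile of all genes, 4.88, and 17 of the 40 raised genes are among them. At such levels most of the reading can be background, and the folds given for them may be too small. With zinc 6 genes lay below the lower quartile of that group, 4.85, and in untreated Atp7b-/- 0 did.

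The choice of probe set mattered for several genes. Mutant arrays enter the mean by which the probe set was picked, so the rule favours probe sets that rise in the mutants. The 47 genes have 99 probe sets; 16 genes have 1 and 31 have several. In 22 of the 31, the probe sets of a gene spanned over 1 log2 unit in the difference between Atp7b-/- and wild type. All untreated mutant arrays lay above all wild type arrays in 72 of the 99 probe sets and below in 2, and all zinc arrays lay below all untreated mutant arrays in 67. At least 1 such raised probe set was found for 43 of the 47 genes, and a gene with several has more chances of one. The shares over all probe sets of the array were not counted, and those given above are over genes.

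Of the 6 members that did not pass, 3 had another, dimmer probe set with separate groups. For Bub1b the other probe sets gave 1.32 and 1.96, against -0.25 on the one used. The higher of these read 4.55, 4.48, 4.74 and 4.19 in wild type and 6.96, 5.97, 6.25 and 6.63 in Atp7b-/-. Kif2c gave 2.12 and 0.99 on other probe sets against 0.13, with a further one at -0.18, and Ccna2 gave 0.92 against 0.11. Some raised genes also differed among probe sets: Kif11 gave 2.61 on one and 1.21 on the one used, and Racgap1 2.86 and 1.77. Besides Cdca3, Top2a and Spc25, described above, Cenpf rested on 1 probe set, since its other 2 gave -0.02 and 0.06 against 1.27. So did Aurka (0.13 on its other probe set against 2.04), Bub1 (0.08 against 3.28) and Nusap1 (0.15 against 2.46). Those other probe sets were dim, with means of 3.69, 3.30 and 3.81. Tpx2 gave 1.77 on another probe set besides 1.95 on the one used, but -0.23 and -0.10 on the rest. Which transcripts the probe sets read was not tested. With the mean of all probe sets, 43 members were higher and 1 lower, and the median difference was 1.53.

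**Figure D4:**
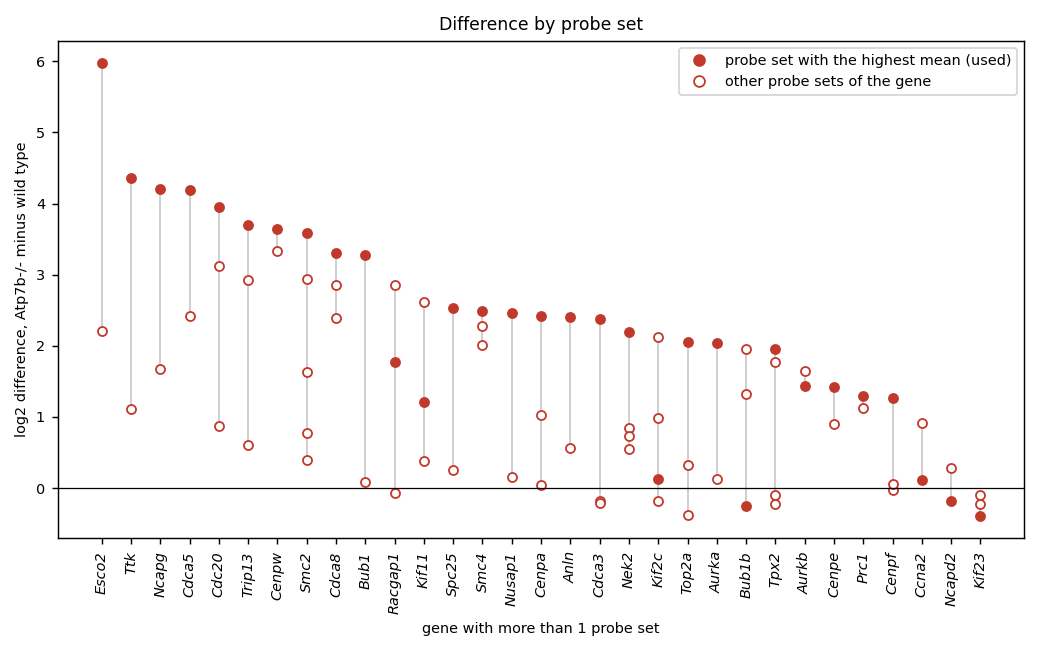
Log2 difference between Atp7b-/- and wild type for every probe set of the 31 genes with more than 1, the probe set used filled and the others open. For most genes the one used shows the larger difference, while for Bub1b, Kif2c, Kif11, Racgap1, Ccna2, Aurkb, Ncapd2 and Kif23 an open circle lies higher. The rule for the one used, the highest mean over all arrays, itself favours probe sets that read high in the mutants.

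Other mitotic genes were taken from a list of 101, of which 99 were measured. Of these 57 rose in Atp7b-/-, 37 by at least 1 log2 unit, 6 fell, and 36 did not pass, with a median difference of 0.49. Of all genes 14.3% rose, 3.03% by as much, and 10.3% fell. With zinc 35 were lower and 1 higher than without, beside 4.84% and 1.7% of all genes. Against wild type 38 stayed higher with zinc and 3 were lower, beside 4.89% and 2.73%. The 8 with the smallest adjusted p in the first comparison were Cenpq and Spdl1 (kinetochore), Haspin (the kinase that recruits the passenger complex), Lin9, Kif18a, Cep55 (abscission), Plk4 (centriole duplication) and Arhgap11a. Their rises were 3.07, 3.41, 2.62, 2.71, 2.42, 3.77, 2.46 and 3.53 in that order. Cenpq read 6.27, 6.15, 6.43 and 6.19 in wild type, 9.49, 9.23, 9.22 and 9.40 in Atp7b-/-, and 8.62, 8.60, 8.71 and 8.63 with zinc, so its groups were separate and its zinc arrays were close to the untreated ones.

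Mki67, a coat protein of mitotic chromosomes and a common proliferation marker, was not among the raised genes. Its level was 5.53 ± 0.37 in wild type, 5.37 ± 0.63 in Atp7b-/- and 5.36 ± 0.25 with zinc (SD, n = 4). The groups overlapped, and only Atp7b-/- replicate 1, at 6.29, stood above the rest. The difference between Atp7b-/- and wild type was -0.15 ± 0.26 SE (adjusted p = 0.695). It has 1 probe set on this array.

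DNA replication genes, which act in S phase, were a separate list of 41 with 39 measured. Of these 10 rose, 4 fell and 25 did not pass in Atp7b-/-, with a median of 0.01. Called shares of all genes were 14.3% higher and 10.3% lower. With zinc 1 was lower than without (Rrm2, by 1.57, adjusted p = 0.0434 by limma) and 0 were higher, beside 4.84% and 1.7% of all genes. The unadjusted p gave 4 and 0. Against wild type 8 of the 39 were higher with zinc and 3 lower, beside 4.89% and 2.73% of all genes. Rrm2 read 9.14, 7.34, 6.40 and 7.08 in Atp7b-/- and 5.47, 6.42, 5.96 and 5.84 with zinc. These ranges overlapped, and replicate 1 stood highest in Atp7b-/-. Between Atp7b-/- and wild type Rrm2 did not pass by limma (0.89, adjusted p = 0.141). The rises with the smallest adjusted p were those of Dbf4, the activator of Cdc7 (2.44), Rfc5, a clamp loader subunit (1.19), Gmnn, which blocks relicensing (0.66), and Gins3, part of the helicase (0.61). Dbf4 read 6.17, 6.64, 6.05 and 6.31 in wild type, 8.46, 8.92, 8.94 and 8.63 in Atp7b-/-, and 8.82, 8.42, 8.45 and 8.56 with zinc, so both mutant groups overlapped each other and stood above wild type.

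Markers of cell types other than hepatocytes moved with the groups in part. Over all genes 14.3% were called higher and 10.3% lower in Atp7b-/- than in wild type. For zinc against no zinc these shares were 1.7% and 4.84%. Of 8 macrophage markers 5 were lower in Atp7b-/- and 0 higher. Their mean level ran from 7.43 to 8.50 in Atp7b-/-, 7.84 to 8.82 in wild type and 7.66 to 7.96 with zinc. The 8.50 was that of Atp7b-/- replicate 1, while the rest of its group read 7.43, 7.69 and 7.45. Of 6 endothelial markers 3 were lower in Atp7b-/-, with means of 7.23 to 7.39 against 7.64 to 7.77 in wild type and 7.51 to 7.69 with zinc. Among them Clec4g was higher with zinc than without (0.43, adjusted p = 0.00794 by limma) and with zinc still lower than in wild type (-0.39, adjusted p = 0.0103). Of 7 erythroid markers 2 were higher in Atp7b-/-, Tfrc (1.47) and Alas2 (0.43), and the mean was 6.60 to 6.78 against 6.31 to 6.52 in wild type and 6.20 to 6.52 with zinc. The other 5 erythroid markers were not called in Atp7b-/- against wild type, with differences from -0.16 (Epb42) to 0.15 (Slc4a1). Klf1, an erythroid transcription factor, was 6.83 ± 0.40 in wild type, 6.85 ± 0.30 in Atp7b-/- and 5.88 ± 0.21 with zinc (SD, n = 4). With zinc it was lower than in untreated mutants (-0.97, adjusted p = 0.00886 by limma) and than in wild type (-0.95, adjusted p = 0.00804). By limma 0 of 8 lymphocyte and 0 of 6 neutrophil markers were called in any comparison, with at most 1 per comparison at an unadjusted p under 0.05. Of 7 stellate cell markers 2 were higher with zinc than without, Reln (0.61, adjusted p = 0.00985) and Col3a1 (0.74, adjusted p = 0.0455), and the mean was 7.52 to 7.89 in Atp7b-/-, 7.70 to 7.94 in wild type and 7.90 to 8.09 with zinc. Of 5 cholangiocyte markers 1 was higher in Atp7b-/-, Krt19 (0.47, adjusted p = 0.0196). With zinc Krt19 differed by -0.41 from untreated mutants, which did not pass (adjusted p = 0.0807), and the mean of the 5 was 5.0 to 5.3 in Atp7b-/-, 5.06 to 5.27 in wild type and 4.97 to 5.10 with zinc. Of 8 hepatocyte markers Hnf4a was lower in Atp7b-/- (-0.25, adjusted p = 0.0233) and Tat was lower with zinc than without (-0.72, adjusted p = 0.0339). Which cells carried the mitotic transcripts was not tested.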

How the data were processed

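Liver RNA of 12 samples was hybridised to Affymetrix GeneChip Mouse 430 2.0 arrays, per the labels. The authors deposited 1 table of log2 values for 45101 probe sets; how they normalized it is not stated in the sources used. The values were used without further scaling. Probe sets listed under exactly 1 gene symbol were kept (34945), and each gene was represented by its brightest one on average, for 18193 genes in total. Of the rest, 64 are controls, 932 have several symbols and 9160 none.

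The comparisons used limma (version 3.58.1, under R 4.3.3): a single model with 3 group means over 12 arrays, with Benjamini-Hochberg adjustment over all 18193 genes. Errors after ± are SE of a fitted difference where so marked, and otherwise SD between 4 arrays. The fit was tested on simulated data. Per-array values were given for up to 4 genes of each role with the largest difference between Atp7b-/- and wild type among those called in any comparison, and for members called lower there. Of the other mitotic genes 8, and of the replication genes 4, with the smallest adjusted p were named. Atp7b and Mki67 served as checks. Other genes given with values fall outside this rule, and were picked with their values in view. The members, lists and tests were chosen with earlier results of these data known, so no list was given a test of its own.

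Replicate numbers were not taken to pair the arrays, since correlations of same-numbered arrays ran from -0.13 to 0.24. Alternatives covered normalization, choice of probe set, a filter on dim genes, variance model, array weights, a replicate block and the arrays left out. Promoter sequences came from the RefSeq table, build GRCm38.p6.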

Additional observations from a re-analysis of the deposited data

Results flagged for a closer look

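In 7 of 141 groups of 4 arrays, 1 array stood apart from the other 3 by more than Dixon's 95% limit; chance sets apart about 1 in 20 groups, here 7. In Atp7b-/- replicate 1, Melk read 6.84 against 5.31 to 5.57 in the others, Spc25 10.12 against 9.45 to 9.51, and Nuf2 6.23 against 7.06 to 7.21. Cenpa read 8.55 in Atp7b-/- replicate 2 against 8.82 to 8.86. Cdca3 read 5.40 in wild type replicate 1 against 5.76 to 5.78. With zinc, Bub1b read 6.31 in replicate 1 against 6.02 to 6.05, and Smc2 read 8.82 in replicate 3 with the others at 8.83.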

How the results depend on the processing

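The number of members called kept within 1.5 times of its value in every alternative run. It was 31 to 44 (41 as reported) for Atp7b-/- against wild type, 30 to 41 (40) for zinc against no zinc, and 21 to 30 (28) for zinc against wild type. The lowest counts came from leaving out probe sets ending in _x_at, _s_at or _a_at, which leaves 38 members. Leaving out 1 array at a time gave 40 to 42, 37 to 41 and 28 to 30 members, with median differences of 2.22 to 2.49, -1.17 to -0.95 and 0.92 to 1.15. With the replicate block the counts were 41, 39 and 28. The replicate numbers were not taken as pairs, since 5 of 12 same-numbered pairs of arrays correlated above 0.1, not all. Of the 12 arrays, 6 correlated best with an array of their own number. How many would do so by chance was not worked out, and a shared source was not tested. The median difference moved with the choice of probe set: to 1.53 (mean of all probe sets) and 2.01 (those endings left out) for Atp7b-/- against wild type, and to 0.67 and 0.77 for zinc against wild type.

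Signs turned in these cases. With the mean of all probe sets, or without the endings named above, a gene was not read from the same probe set alone as in the main fit. Why signs turned in the other fits was not tested. After quantile normalization Tpx2 was -0.18 in Atp7b-/- and -0.26 with zinc against wild type. Its probe set was picked again there, and the one nearly as bright gave -0.23 and -0.27 as deposited. With the mean of all probe sets, Bub1b was 1.01 and Ncapd2 0.05 in Atp7b-/- against wild type, Bub1b -0.63 and Kif2c -0.58 for zinc against no zinc, and Cdca3 -0.01, Bub1b 0.39, Ncapd2 0.09 and Kif11 0.06 for zinc against wild type. Without the named probe set endings, Cdca3 was -0.18, 0.00 and -0.18 in the 3 comparisons, Kif2c -0.87 for zinc against no zinc and Cenpa -0.23 for zinc against wild type. For zinc against no zinc Kif2c ran from -0.04 to 0.12 with 1 array left out (-0.01 without zinc replicate 3, -0.04 without Atp7b-/- replicate 4) and was -0.02 without zinc replicates 2 and 3, where Ncapd2 was -0.01. For zinc against wild type Bub1b was 0.00 without wild type replicate 3, Anln -0.04 without wild type replicate 4 (up to 0.14 without replicate 1), Kif11 0.01 without zinc replicate 4 (down to -0.20 without wild type replicate 4), and Cenpf -0.01 and Aurkb -0.02 without zinc replicates 2 and 3. Over all alternatives, those with a turned sign included, single members lost their call in 6, 32 and 9 fits of the 3 comparisons and gained one in 7, 7 and 8. Over all genes, Atp7b-/- gave 2608 higher and 1872 lower calls as deposited; quantile normalization gave 2154 and 2192, and median centring 2897 and 1359. Of the mitotic members 39 were higher under quantile normalization and 40 under median centring.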

Other observations

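Genes whose products act on the CHR were looked up among the other mitotic genes after their values were seen. Lin9 and Lin54 are core subunits of the MuvB complex, and Lin54 is its CHR-binding subunit. Lin54 read 7.28, 7.96, 7.49 and 7.79 in wild type, 10.17, 10.25, 10.18 and 10.39 in Atp7b-/-, and 10.05, 9.71, 9.73 and 9.89 with zinc. It was 2.62 higher in Atp7b-/- than in wild type (adjusted p = 1.32e-08), and with zinc it was 2.22 above wild type (adjusted p = 2.1e-07). Between zinc-treated and untreated mutants it differed by -0.40, which did not pass (adjusted p = 0.0911 by limma), although every zinc-treated array lay below every untreated one. Lin9 was 2.71 above wild type in Atp7b-/- and 2.28 above it with zinc. Between zinc-treated and untreated mutants Lin9 differed by -0.42, which passed (adjusted p = 0.0444), again without overlap. Foxm1 and Mybl2, activators that join MuvB to switch on mitotic genes, were not called in any comparison. Foxm1 differed by -0.07 ± 0.11 SE between Atp7b-/- and wild type (adjusted p = 0.688), and its 4 probe sets gave -0.10 to 0.48. On the one at 0.48 every zinc-treated array lay below every untreated mutant array, by 0.48 on average. Mybl2 differed by -0.17 ± 0.08 SE (adjusted p = 0.136), but its mean was below the lower quartile of all genes in all 3 groups, so a change could be missed.

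The 6 other mitotic genes that fell in Atp7b-/- were Nsl1 (-0.64), Tubg1 (-0.61), Ube2s (-0.58), Smc3 (-0.39), Anapc5 (-0.33) and Wapl (-0.29). Smc3, a ring subunit of cohesin, was also the 1 gene of that list that was higher with zinc than without (0.34, adjusted p = 0.0215).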
